A study of Homo sapiens with 6 samples.

Results

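The endothelin system was described across 6 RNA-Seq samples of Caki2 cells through 6 genes, which are the ligands EDN1 and EDN2, the converting enzymes ECE1 and ECE2, and the receptors EDNRA and EDNRB. They were picked by symbol from the 25369 genes of the deposited tables. The set was chosen with measured values in view, since EDNRB was known to be nearly silent without PBRM1, so the differences of the 6 genes between the groups are given as a description with no p-value. Caki2 is a clear cell renal cell carcinoma (ccRCC) line labelled as having no PBRM1 expression, where PBRM1 (BAF180) is a subunit of the PBAF chromatin remodeling complex. The study found PBRM1 mRNA in this line but no protein, and attributes the missing protein to a short deletion in the gene. Caki2+Vector cells carried an empty doxycycline-inducible lentiviral vector, and Caki2+PBRM1 cells carried the same vector with full-length PBRM1. Both groups received doxycycline at 2 µg/ml, and each group had 3 replicates, A, B and C. Each group was a stable, drug-selected line, so the effect of PBRM1 and any other difference between these lines cannot be told apart. The study calls them biological replicates, but neither it nor the labels say whether they came from separate cultures, and the p-values below measure the spread between these samples, which may be technical.

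Endothelins are short vasoactive peptides. Their precursors are cut first by furin-like convertases to big endothelins and then by the endothelin converting enzymes to the active peptides, which bind the G protein-coupled receptors ETA (EDNRA) and ETB (EDNRB). ETA on vascular smooth muscle signals mainly through Gq and phospholipase C to raise calcium and contract the cell, whereas ETB on endothelium releases nitric oxide and prostacyclin and clears endothelin from the circulation. In the kidney, ETB of the collecting duct restrains sodium uptake. EDNRB is also needed for neural crest derivatives such as melanocytes and enteric neurons.

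PBRM1 itself, the introduced gene, was listed at 195, 182 and 182 normalized counts in Caki2+Vector A, B and C and at 2432, 2521 and 2682 in Caki2+PBRM1 A, B and C. The counts per gene do not separate the transcript of the line's own mutated gene from the introduced one. Normalized counts are reads on a gene divided by a factor per sample and are not divided by gene length. Each sample held 7312955 to 10835355 reads on genes. Replicate A of Caki2+Vector stood apart from B and C, with chi-square per degree of freedom of 3.09 against B and 2.84 against C, compared with 1.34 between B and C and 1.19 to 1.22 among the Caki2+PBRM1 replicates. PAX8, the renal lineage factor, was at a mean of 2072 ± 161 normalized counts in the Caki2+Vector group against 2094 ± 41.2 with PBRM1 (SD, n = 3 each). Endothelial markers, which would accompany the endothelin receptors of endothelium, summed over 7 genes to 2.84 to 5.67 and 5.04 to 8.89 normalized counts per sample, with CDH5 and TEK at 0 in every sample. The 5 smooth muscle or pericyte markers were not absent, and summed to 197 to 221 and 208 to 231 normalized counts per sample. Most of that was ACTA2, at 137 ± 7.88 and 140 ± 2.34. The 5 melanocyte or neural crest markers summed to 51.5 to 64.2 and 47.8 to 57.8 normalized counts per sample. Most of this was PMEL, at 52.9 ± 6.51 and 49.3 ± 5.04, which was the only 1 that could be tested and did not pass the threshold, while MLANA had 22 reads in all, SOX10 and DCT had 2 each and TYR had 0. Renal or ccRCC markers did move, with 4 of the 9 tested higher (VIM, CDH6 and NDUFA4L2 among them) and 3 (KRT8, KRT18 and KRT7) lower in Caki2+PBRM1 by the limma test described below, and their part in the endothelin results was not tested.

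The receptor genes carry the widest contrast of the set, and their promoters are shown here because EDNRB went from near silence to a clear signal while EDNRA stayed at the limit of detection. The sequences are from RefSeq on GRCh38.p14 and run from 250 bases before to 50 bases after an annotated transcription start. Capitals mark CpG dinucleotides. Of the 6 genes, 5 had an entry in the promoter table. The windows of EDNRB are on the minus strand at chr13:77919633-77919932 (window 1) and chr13:77918782-77919081 (window 2), and that of EDNRA is on the plus strand at chr4:147480847-147481146.
EDNRB window 1: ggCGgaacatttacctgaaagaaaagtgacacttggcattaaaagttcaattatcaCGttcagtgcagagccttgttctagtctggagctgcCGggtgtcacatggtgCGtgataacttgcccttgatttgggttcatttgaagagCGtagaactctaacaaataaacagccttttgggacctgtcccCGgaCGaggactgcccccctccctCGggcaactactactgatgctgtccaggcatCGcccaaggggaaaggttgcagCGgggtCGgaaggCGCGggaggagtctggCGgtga
EDNRB window 2: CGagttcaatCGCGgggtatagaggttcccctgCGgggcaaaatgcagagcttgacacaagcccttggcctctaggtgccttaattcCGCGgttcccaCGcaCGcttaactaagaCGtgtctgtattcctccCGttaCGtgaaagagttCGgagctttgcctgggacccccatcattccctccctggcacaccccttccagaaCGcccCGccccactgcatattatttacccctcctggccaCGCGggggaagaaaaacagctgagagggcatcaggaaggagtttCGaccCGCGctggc
EDNRA window 1: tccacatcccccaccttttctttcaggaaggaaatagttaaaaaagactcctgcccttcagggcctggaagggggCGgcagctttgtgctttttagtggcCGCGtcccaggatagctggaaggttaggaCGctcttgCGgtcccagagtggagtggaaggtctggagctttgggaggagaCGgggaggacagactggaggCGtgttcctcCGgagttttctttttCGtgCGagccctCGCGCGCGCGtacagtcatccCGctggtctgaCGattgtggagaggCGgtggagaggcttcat

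The EDNRB windows hold 14 and 19 CpG dinucleotides and the EDNRA window 18, beside a median of 14 over all 35116 windows of the table, so all of them lie at or above the middle of the distribution. The motifs searched, on both strands, were the hypoxia response element cores ACGTG and GCGTG, the AP-1 site TGANTCA, the E-box CACGTG, which contains ACGTG, the TATA box TATAAA and the GC box GGGCGG. EDNRB window 2 had 2 matches to ACGTG, 3 to GCGTG and 1 to the GC box, and EDNRB window 1 had 1 match to each hypoxia core. The EDNRA window had 1 match to GCGTG and 1 to the GC box. Matches to these motifs are frequent, with ACGTG in 21.4% of all windows, GCGTG in 36.5%, TGANTCA in 7.71%, CACGTG in 7.26%, TATAAA in 11.5% and GGGCGG in 45.0%. No binding or chromatin data were analysed here, and the matches are a description of the letters only.

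Of the ligands, EDN1 (ENSG00000078401, chr6:12290594-12297427 on GRCh37, plus strand), the most widely made endothelin, was expressed at a low level in all 6 samples. It was listed at 23.7, 24.6 and 21.6 normalized counts in Caki2+Vector A, B and C and at 26.0, 27.6 and 26.9 in Caki2+PBRM1 A, B and C. All 3 Caki2+PBRM1 samples were above all 3 Caki2+Vector samples, but the gap between the groups was small, at 23.3 ± 1.53 against 26.8 ± 0.780 (SD, n = 3 each). On the scale of log2(normalized count + 1), which is used for every fold change here and understates changes of low genes, the difference was 0.20 with an SE of 0.22 and a 95% interval of -0.25 to 0.64, which includes 0. The interval rests on 69 and 87 reads in all.

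EDN2 (ENSG00000127129, chr1:41944446-41950354, minus strand), a closely related peptide that binds both receptors, had 31.2, 19.8 and 31.2 normalized counts in Caki2+Vector A, B and C and 16.2, 22.2 and 16.8 in Caki2+PBRM1 A, B and C. The groups overlapped, because Caki2+Vector B lay below Caki2+PBRM1 B. The means were 27.4 ± 6.56 and 18.4 ± 3.30 (SD, n = 3 each), and the log2 fold change was -0.53 with an SE of 0.25 and an interval of -1.04 to -0.03. EDN2 was thus the ligand with the lower value in Caki2+PBRM1, on 80 and 60 reads. Its log2 fold change varied with the sample left out, at -0.74 without Caki2+Vector B and -0.43 without Caki2+Vector A or Caki2+Vector C. EDN3, the remaining ligand gene of the family, had 0 reads in every sample, which allows up to 3 reads per sample, or 2.52 to 3.60 normalized counts.

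ECE1 (ENSG00000117298, chr1:21543740-21672065, minus strand), the main membrane protease that turns big endothelin-1 into the active peptide, was by far the most abundant of the 6 genes. It had 2735, 3089 and 3093 normalized counts in Caki2+Vector A, B and C and 3379, 3426 and 3355 in Caki2+PBRM1 A, B and C. The groups did not overlap, and the lowest value was that of Caki2+Vector A. The means were 2973 ± 206 and 3387 ± 36.1 (SD, n = 3 each), a log2 fold change of 0.19 with an SE of 0.043 and an interval of 0.10 to 0.28, and the fold change was 0.13 without Caki2+Vector A. ECE1 shares 240 exon bases with the antisense transcript ECE1-AS1, which has no entry of its own in the tables, and whether the counting used strand is not given in the sources used here.

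ECE2 (ENSG00000145194, chr3:183993799-184010819, plus strand), a related protease found mainly in neural and endocrine cells, had 84.3, 122 and 123 normalized counts in Caki2+Vector A, B and C and 121, 123 and 107 in Caki2+PBRM1 A, B and C. The 6 values overlapped, and again Caki2+Vector A was the lowest. The log2 fold change was 0.11 with an SE of 0.13 and an interval of -0.16 to 0.38, and its sign turned without Caki2+Vector A, at -0.07. ECE2 shares 2965 exon bases with the readthrough gene EEF1AKMT4-ECE2, so the reads of these transcripts may not be separable.

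EDNRB (ENSG00000136160, chr13:78469616-78549664, minus strand), the gene of the ETB receptor, was nearly silent in Caki2+Vector, with 5.68, 1.89 and 5.99 normalized counts in A, B and C. In Caki2+PBRM1 it had 62.8, 42.7 and 51.2 normalized counts in A, B and C. The lowest Caki2+PBRM1 sample was far above the highest Caki2+Vector sample. The means were 4.52 ± 2.28 and 52.2 ± 10.1 (SD, n = 3 each), 11.6 times as high in Caki2+PBRM1, from 13 and 167 reads in all. The log2 fold change was 3.36 with an SE of 0.32 and an interval of 2.71 to 4.01, ranking 6 among the 13303 tested genes from the highest. In these bulk samples, fewer cells expressing EDNRB and less EDNRB RNA per cell cannot be told apart.

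Despite this contrast EDNRB remained a modest transcript. In Caki2+PBRM1 17.8% of the tested genes had a lower mean than EDNRB. In Caki2+Vector the share was 0.113%, but it was set by the filter, which removes genes that are this low in both groups. Genes below the filter are in neither share, so the 2 shares do not give a shift in rank among all genes. It passed the filter on low values (3 or more samples with 10 or more normalized counts) through the Caki2+PBRM1 samples alone, so it had to differ between the groups. EDNRB shares 80 exon bases with OBI1-AS1 and 124 with ENSG00000233379, neither of which is listed in the tables. EDNRB-AS1 was listed with 0 reads in all samples.

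EDNRA (ENSG00000151617, chr4:148402069-148466106, plus strand), the gene of the ETA receptor, was listed at 0 in all 3 Caki2+Vector samples and at 1.08, 0 and 0.839 normalized counts in Caki2+PBRM1 A, B and C. These are 2 reads in all, under the limit of 3 reads per sample that a count of 0 allows, and no fold change was computed. A difference in EDNRA was not detectable at this depth.

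**Figure D1:**
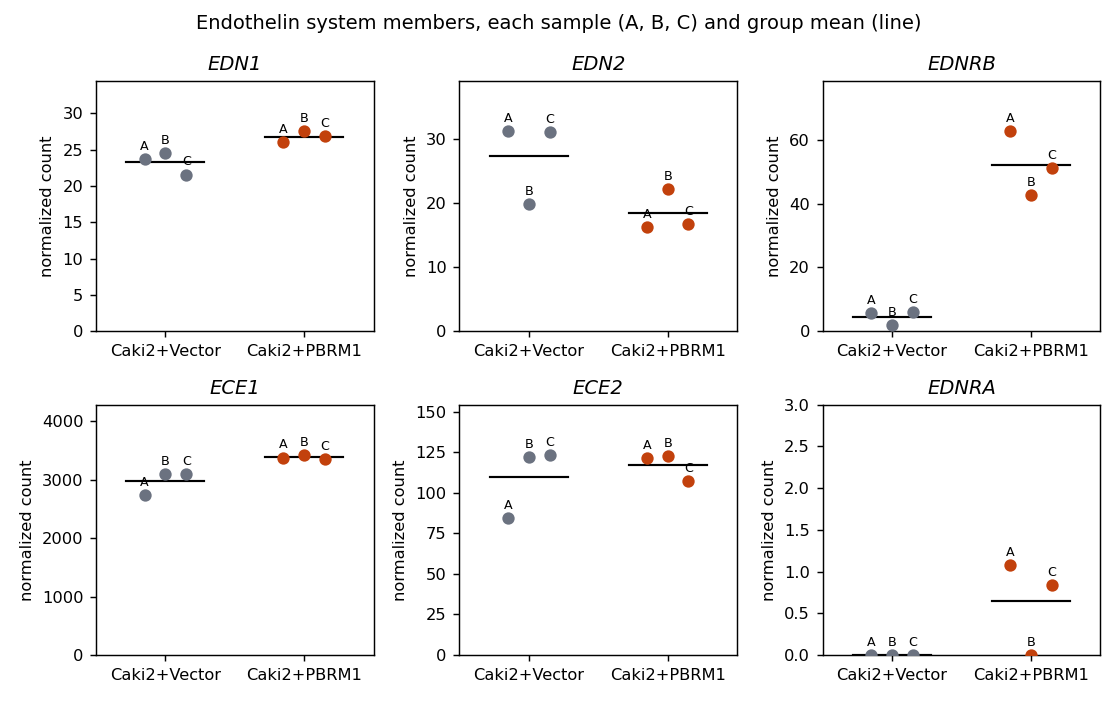
Normalized counts of the 6 endothelin genes (y axis, linear from 0, a scale of its own for each gene) in the Caki2+Vector and Caki2+PBRM1 samples A, B and C (points), with the group mean as a line. EDNRB separates from 1.89 to 5.99 in Caki2+Vector to 42.7 to 62.8 in Caki2+PBRM1, EDN1 and ECE1 separate by a small margin, EDN2 and ECE2 overlap, and EDNRA is at or near 0.

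Of the 6 genes, 5 passed the filter and 1, EDNRA, did not. ECE1 and EDNRB passed the threshold of an adjusted p under 0.05 in the limma test over all 13303 tested genes (Benjamini-Hochberg), both higher in Caki2+PBRM1, and none was lower. Over all tested genes 29.2% passed, 16.2% higher and 13% lower. EDN1, ECE1 and EDNRB had groups that did not overlap, as did 41.7% of all tested genes. Because the set was selected on this contrast, nothing is read from these counts. Leaving out Caki2+Vector B brought EDN2 past the threshold as well, which leaving out any other sample did not. In that fit 3424 of the 13303 tested genes passed, 1440 of them lower. The sample left out is the one that made the groups of EDN2 overlap, so nothing is read from this call either.

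Levels of different genes were compared per kilobase of the MANE transcript, which may differ from the exons the authors counted. In Caki2+Vector the order of mean levels per kb was ECE1 (587 ± 40.6 normalized counts per kb), ECE2 (34.1 ± 6.88), EDN2 (21.9 ± 5.24), EDN1 (11.4 ± 0.754), EDNRB (1.05 ± 0.531) and EDNRA (0), with SD over n = 3. No neighbours in that order overlapped in their sample ranges, apart from the receptors at the bottom, where EDNRA was below detection. In Caki2+PBRM1 the order of levels per kb was ECE1 (668 ± 7.12), ECE2 (36.3 ± 2.62), EDN2 (14.7 ± 2.64), EDN1 (13.2 ± 0.383), EDNRB (12.1 ± 2.35) and EDNRA (0.161 ± 0.143). There the ranges per kb of EDN2 (13.0 to 17.7), EDN1 (12.8 to 13.5) and EDNRB (9.92 to 14.6) overlapped, so these 3 could not be ordered.

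The rest of the pathway was read from a list of 99 genes ordered by role. Of these, 69 could be tested, and 24 rose, 6 fell and 39 did not pass the threshold, while 25 were below the filter and 5 had no read. The share that passed was 43.5%, beside 29.2% of all tested genes, and the median log2 fold change was 0.10, beside 0.00 (-0.0036) over all tested genes. The list was chosen with earlier results of these data known, so nothing is read from the difference between these shares or medians. MME and PTGS2 were under 10 normalized counts in every Caki2+Vector sample and so had to be higher to enter the test. Among the other 67 tested genes 22 rose. The counts by role below rest on few genes each and are given as a description beside the 29.2%, with nothing read from the count of a single role.

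**Figure D2:**
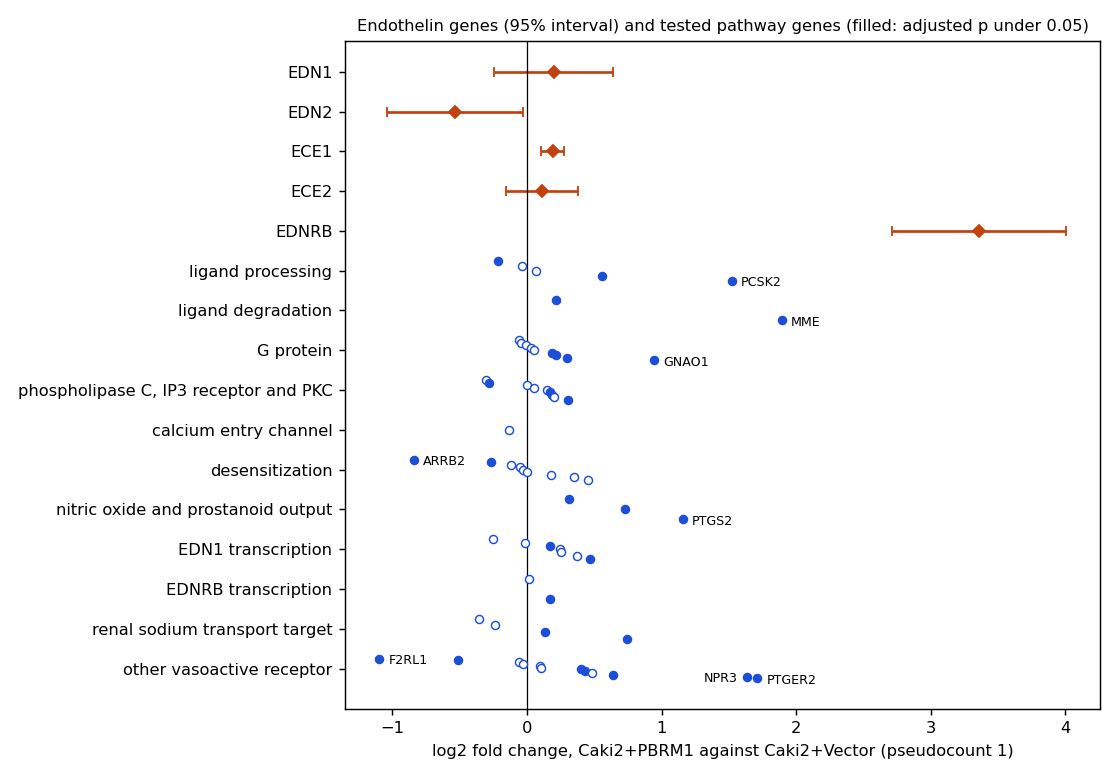
Log2 fold change of Caki2+PBRM1 against Caki2+Vector (x axis, log2 of normalized count + 1) for the 5 tested endothelin genes (diamonds with the 95% interval) and the tested genes of the pathway list for the roles described in the text (circles, filled where the limma adjusted p was under 0.05). EDNRB lies at 3.36, beyond every plotted gene of the pathway list, whose highest values are those of MME (1.89) and PTGER2 (1.71) and whose lowest is that of F2RL1 (-1.10).

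In ligand processing, 2 of 5 tested genes rose and 1 fell. FURIN, the convertase that cuts the endothelin precursors, rose from a mean of 495 ± 45.1 normalized counts to 727 ± 27.4 (log2 fold change 0.56, SE 0.064, limma adjusted p = 6.61e-08, Benjamini-Hochberg). PCSK2, a convertase of neuroendocrine cells, rose from 13.1 ± 2.17 to 39.0 ± 0.980 (log2 fold change 1.52, SE 0.23, limma adjusted p = 7.28e-06). PCSK5, another furin-like convertase, fell from 2632 ± 72.1 to 2269 ± 68.0 (log2 fold change -0.21, SE 0.040, limma adjusted p = 1.33e-04). PCSK5 was thus more abundant than FURIN in normalized counts without length correction in both groups, and PCSK1, the other neuroendocrine convertase, had no read.

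Both tested genes of ligand degradation rose, MME having entered the test through the Caki2+PBRM1 samples alone, so that its direction was fixed by the filter. MME, which encodes neprilysin, a membrane protease that breaks down endothelins and natriuretic peptides, was at 9.47, 6.61 and 8.39 normalized counts in Caki2+Vector A, B and C and at 39.0, 35.6 and 25.2 in Caki2+PBRM1 A, B and C (log2 fold change 1.89, SE 0.27, limma adjusted p = 3.28e-06). CTSA, the lysosomal deamidase that inactivates endothelin-1, rose from 1732 ± 88.7 to 2014 ± 75.5 (log2 fold change 0.22, SE 0.045, limma adjusted p = 4.02e-04).

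Among the G protein alpha subunits, 4 of 9 tested rose and none fell, at an unadjusted p under 0.05 either, and edgeR, DESeq2 and voom called 0 lower. GNAO1, the Go subunit, rose from 23.6 ± 1.99 normalized counts to 46.3 ± 3.54 (log2 fold change 0.94, limma adjusted p = 3.82e-04). GNAI1, of the Gi class, had a log2 fold change of 0.30 and GNAS, of the Gs class, of 0.18, both past the threshold, and GNAS was named after its values were seen. GNAQ, the Gq subunit that couples endothelin receptors to phospholipase C, had 790 ± 54.2 and 766 ± 25.3 normalized counts (limma adjusted p = 0.623). GNA11, of the same class, had a log2 fold change of 0.22 with overlapping groups (limma adjusted p = 0.0362), and the call was lost without Caki2+Vector A (0.12), without Caki2+PBRM1 B (0.17) and without Caki2+PBRM1 C (0.22). GNA15, a further Gq class subunit, had no read.

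Downstream, 3 of 9 genes of phospholipase C, IP3 receptors and protein kinase C rose and 1 fell, all by small amounts. ITPR1 (log2 fold change 0.31) and ITPR3 (0.17), calcium channels of the endoplasmic reticulum, and the kinase PRKCA (0.19) rose, and the call of ITPR3 was lost without Caki2+PBRM1 B (0.15). PLCB4, a Gq-activated phospholipase, fell from 652 ± 36.9 normalized counts to 536 ± 24.4 (log2 fold change -0.28, limma adjusted p = 6.09e-04). The only tested calcium entry channel, TRPC1, did not pass the threshold in limma, edgeR, DESeq2 or voom, nor an unadjusted p of 0.05.

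Of the 9 tested genes that switch off receptor signaling, 2 fell and none rose in limma, edgeR or voom, while GRK6 was higher at an unadjusted p under 0.05. The 3 listed genes below the filter were not tested, so a rise among them could not be called. Their means in Caki2+Vector and Caki2+PBRM1 were 2.61 ± 2.66 and 12.8 ± 6.26 for RGS4 and 7.21 ± 2.14 and 9.29 ± 0.433 for GRK4. For RGS16 they were 1.43 ± 0.838 and 0.937 ± 0.129. ARRB2, the beta-arrestin that takes activated receptors off the surface, had 108, 104 and 77.9 normalized counts in Caki2+Vector A, B and C and 52.0, 55.1 and 52.0 in Caki2+PBRM1 A, B and C (log2 fold change -0.84, SE 0.15, limma adjusted p = 5.00e-05). The groups did not overlap. ARRB1, its paralog, had 321 ± 9.67 and 316 ± 28.1 (limma adjusted p = 0.816). ADRBK2, a G protein-coupled receptor kinase also named GRK3, had a log2 fold change of -0.27 (limma adjusted p = 0.0174), a call lost without Caki2+Vector C (-0.24) or Caki2+PBRM1 C (-0.25).

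All 3 tested genes of nitric oxide and prostanoid output rose, and all 3 belong to prostanoid synthesis, but the direction of PTGS2 was fixed by the filter, which it passed through the Caki2+PBRM1 samples alone. PTGS1, the constitutive cyclooxygenase, rose from 46.8 ± 4.17 normalized counts to 78.0 ± 6.54 (log2 fold change 0.73, limma adjusted p = 4.18e-04). PTGS2, the inducible cyclooxygenase, had 6.63, 6.61 and 8.39 normalized counts in Caki2+Vector A, B and C and 19.5, 11.6 and 22.7 in Caki2+PBRM1 A, B and C (log2 fold change 1.16, limma adjusted p = 0.00736), and the call was lost without Caki2+PBRM1 C (0.97). PLA2G4A, which releases arachidonic acid, had a log2 fold change of 0.31, a call lost without Caki2+PBRM1 A (0.29). NOS1 and NOS3, the nitric oxide synthases of the list, were below the filter.

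Of the 7 tested factors known to act on EDN1 transcription, 2 rose, or 28.6%, close to the 29.2% of all tested genes. JUN, of AP-1, had a log2 fold change of 0.47 (limma adjusted p = 0.00332), and HIF1A of 0.17 (limma adjusted p = 0.00393). The EDN1 level itself moved by 0.20 with an interval that included 0. Among the factors known from EDNRB in the neural crest, SOX10 and PAX3 had 2 reads each in all samples, and MITF had a log2 fold change of 0.17 (limma adjusted p = 0.00937), a call lost without Caki2+Vector B (0.14) or Caki2+PBRM1 A (0.16). SP1, which binds GC boxes, had 2080 ± 39.5 and 2101 ± 27.1 normalized counts.

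Of the renal sodium transport genes that lie downstream of ETB in the tubule, 2 of 4 tested rose. SLC9A3, the apical sodium-proton exchanger of the proximal tubule, rose from 33.7 ± 6.06 normalized counts to 56.6 ± 3.41 (log2 fold change 0.75, SE 0.18, limma adjusted p = 0.00186). SCNN1A, the alpha subunit of the epithelial sodium channel, had 77.2 ± 4.42 and 60.4 ± 9.93 normalized counts and did not pass (log2 fold change -0.36, limma adjusted p = 0.0660).

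Receptors for other vasoactive mediators gave a frame for EDNRB. Of 23 listed, 12 could be tested, and 5 rose and 2 fell. PTGER2, a prostaglandin E2 receptor that couples to Gs, had 5.68, 11.3 and 10.8 normalized counts in Caki2+Vector A, B and C and 26.0, 44.4 and 26.9 in Caki2+PBRM1 A, B and C (log2 fold change 1.71, limma adjusted p = 3.92e-05). NPR3, the natriuretic peptide clearance receptor, rose from 8.07 ± 2.03 to 26.8 ± 2.95 (log2 fold change 1.63, limma adjusted p = 4.77e-05). Both were near the filter in Caki2+Vector, and in neither did the groups overlap. PTGER4, the related Gs-coupled receptor, had a log2 fold change of 0.64, a call lost without Caki2+PBRM1 A (0.54) or Caki2+PBRM1 C (0.60), and the other 2 that rose, named after their values were seen, were S1PR3 (0.43) and LPAR1 (0.40).

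The receptors that fell were both protease-activated receptors, which thrombin and trypsin-like proteases switch on. F2RL1 had 275, 247 and 213 normalized counts in Caki2+Vector A, B and C and 115, 118 and 107 in Caki2+PBRM1 A, B and C (log2 fold change -1.10, SE 0.10, limma adjusted p = 8.63e-10). F2R fell from 162 ± 19.6 to 113 ± 8.91 (log2 fold change -0.51, limma adjusted p = 6.65e-04). The angiotensin receptor AGTR1 had 8 reads in all samples, and AGTR2 and LPAR3 had none.

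**Figure D3:**
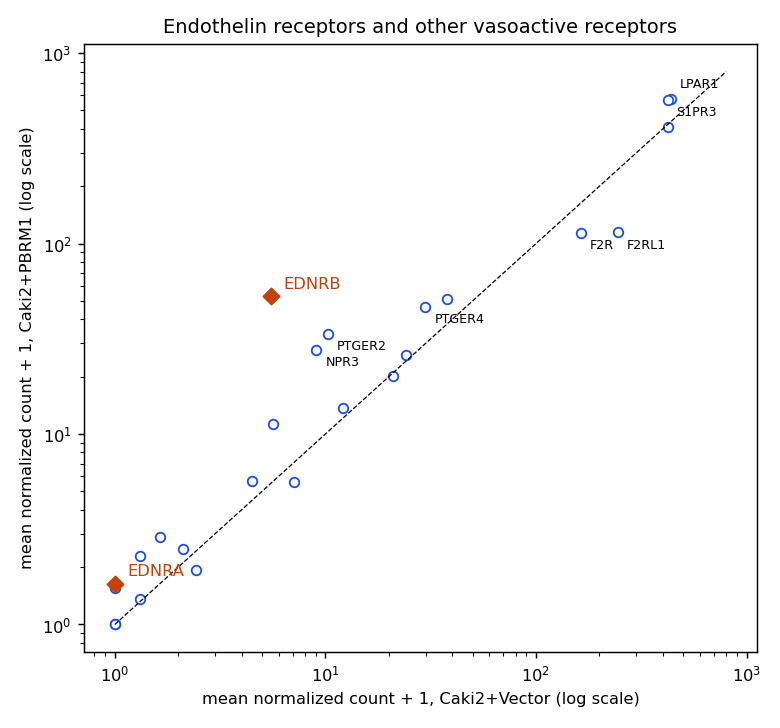
Mean normalized count + 1 (log scales) of EDNRA and EDNRB (diamonds) and of the 23 other vasoactive receptors (circles) in Caki2+Vector (x axis) and Caki2+PBRM1 (y axis), with the line of equality dashed and the genes past the threshold named. EDNRB, at 4.52 and 52.2 before 1 was added, lies farthest above the line, EDNRA lies in the lower left corner, and F2RL1 and F2R lie below the line.

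The 5 tested genes whose profile over the 6 samples was most like that of EDNRB, by the root mean square difference of centred log2(normalized count + 1), were FSTL1 (0.28), EBF1 (0.46), PBRM1 (0.48), MPZL2 (0.48) and TCN1 (0.54). FSTL1, which encodes a secreted follistatin-like glycoprotein, had 9.47, 2.83 and 5.99 normalized counts in Caki2+Vector A, B and C and 74.7, 78.2 and 73.9 in Caki2+PBRM1 A, B and C. Like EDNRB, FSTL1, EBF1 and MPZL2 had their lowest value in Caki2+Vector B, which for EDNRB rests on 2 reads. EBF1, a transcription factor of B cells and mesenchyme, had means of 2.69 ± 0.982 and 22.1 ± 4.13. A likeness over 6 samples in 2 groups mostly reflects the size of the group difference. FSTL1, EBF1 and MPZL2 were under 10 normalized counts in every Caki2+Vector sample and so had to be higher to enter the test. PBRM1 is the introduced gene.

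**Figure D4:**
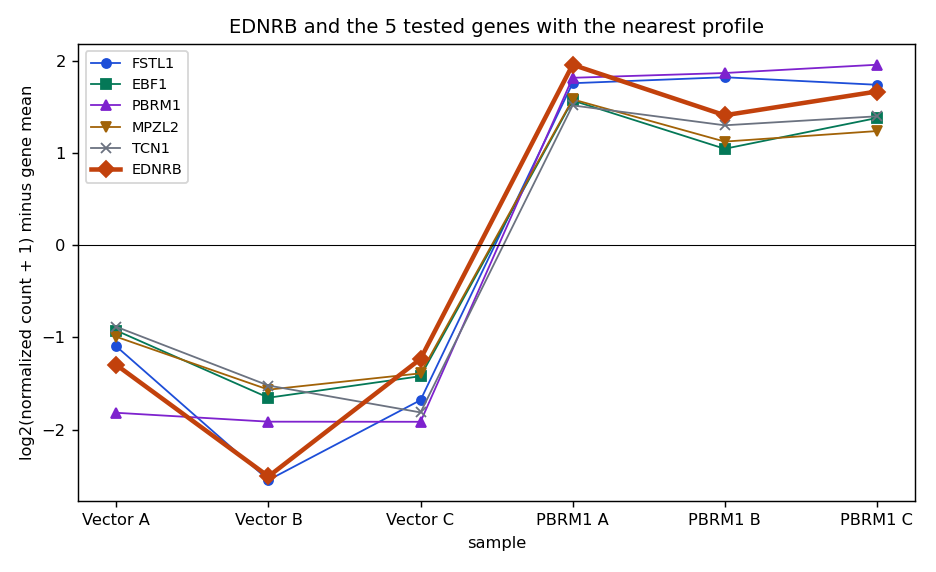
Log2(normalized count + 1) minus the mean of each gene (y axis) in the 6 samples (x axis) for EDNRB (thick line) and the 5 tested genes with the smallest difference from it. All 6 are below 0 in the Caki2+Vector samples and above 0 in the Caki2+PBRM1 samples, and FSTL1 has the smallest difference, 0.28.

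With the values of EDNRB as limits, at most 5.99 normalized counts in every Caki2+Vector sample and at least 42.7 in every Caki2+PBRM1 sample, 2 genes of the tables qualified, EDNRB itself and SAMD9L. SAMD9L, an interferon-responsive gene, had 5.68, 2.83 and 2.40 in Caki2+Vector A, B and C and 66.1, 64.0 and 72.2 in Caki2+PBRM1 A, B and C. With the groups exchanged, 0 genes qualified. These limits were set after the values of EDNRB were seen.

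Around the 6 genes, the genes with a start site within 500 kb were examined. Distances run on GRCh37 between the outermost annotated 5' ends of the genes. These ends need not be the starts of the promoter windows shown above on GRCh38.p14, so distances from those promoters may differ. Of the 6 such genes near EDNRB, 2 could be tested. SLAIN1, at 278 kb, had 5.95 ± 2.31 and 13.8 ± 2.69 normalized counts (log2 fold change 1.13, SE 0.36, limma adjusted p = 0.0178), and SCEL, at 440 kb, had 11.0 ± 2.93 and 9.93 ± 4.81 (limma adjusted p = 0.697). SLAIN1 passed the filter through the Caki2+PBRM1 samples alone and had to be higher, and its call was lost without Caki2+Vector A (0.89), Caki2+PBRM1 A (1.01) or Caki2+PBRM1 B (1.10).

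Near EDN1, EDN2, ECE1 and EDNRA, none of 2, 2, 4 and 3 tested neighbors passed the threshold in limma, edgeR or DESeq2. Voom called 1 of them lower, SLFNL1-AS1 near EDN2, which was also the only 1 with an unadjusted p under 0.05 in limma (log2 fold change -0.81, adjusted p = 0.0554). Near ECE2, which lies in a dense stretch of genes, 3 of 16 rose and 1 fell, which is 25% and near the 29.2% of all tested genes, so nothing is read from this count. Those that rose were CAMK2N2 (log2 fold change 1.31), DVL3 (0.17) and EPHB3 (1.02), and EIF2B5 fell (-0.25, limma adjusted p = 0.00189). CAMK2N2 and EPHB3 were under 10 normalized counts in every Caki2+Vector sample and had to be higher to be tested. The call of DVL3 was lost without Caki2+PBRM1 B (0.15) or Caki2+PBRM1 C (0.16), and that of EPHB3 without Caki2+Vector B (0.78) or any 1 of the Caki2+PBRM1 samples (0.99 to 1.06). These neighbors were named after their values were seen.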

How the data were processed

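RNA-Seq of 3 Caki2+Vector and 3 Caki2+PBRM1 samples was analysed, with groups and replicate letters from the sample labels. The authors enriched poly(A) RNA, aligned the reads to hg19 with STAR, counted them per gene with htseq-count and normalized them with DESeq2 (versions not given in the sources used here). The values the authors deposited are a signal per gene, namely counts divided by a size factor per sample (0.834 to 1.19). All values were whole multiples of the step of their sample (tolerance 0.01 reads), so whole reads could be recovered. Because the deposited values are normalized counts, log2(normalized count + 1) of genes with at least 10 normalized counts in at least 3 samples was fitted by group in limma 3.58.1 (R 4.3.3), whose empirical Bayes step used a trend and was robust, with Benjamini-Hochberg adjustment over 13303 genes and a threshold of 0.05. At this depth the median SE was 0.083. Alternatives were edgeR 4.0.16, DESeq2 1.42.0 and voom on recovered reads, other filters and pseudocounts, a replicate block, and each sample left out. The scripts were tested on simulated data.

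The 6 genes and all lists were chosen with earlier results of these data known. Named genes are the 6, up to 3 per role past the threshold in each direction with the largest log2 fold change, those with no read in any sample, and the 5 most like EDNRB. GNAS, S1PR3, LPAR1, SAMD9L, the neighbors, the markers and list genes shown for comparison were named outside this rule. Gene coordinates and MANE lengths are from GENCODE on GRCh37, and promoters from RefSeq on GRCh38.p14. A count of 0 was taken to allow 3 reads, for counting error only. Some genes of the lists are not reported here.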

Additional observations from a re-analysis of the deposited data

How the results depend on the processing

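The number of genes past the threshold over all tested genes was 3886 with limma and 2553 with DESeq2 on recovered reads, and that of lower genes 1734 and 1057. The log2 fold change of EDNRB was 3.36, 2.75 with a pseudocount of 4, and between 2.94 and 3.58 when samples were left out in turn. It could not be tested when 10 normalized counts were asked of every sample. With the replicate block 4107 genes passed, 30 of the pathway list passed as without it, and the block changed no call of a named gene. Same-letter samples deviated together by r = -0.008 to 0.014, and samples of different letters by r = -0.024 to 0.017. Apart from Caki2+Vector A, replicates differed little beyond counting error, so these values cannot decide whether the letters mark a pairing. Of 32 named genes of the pathway and neighborhood, 20 kept their call under every alternative that could test them and 0 reversed. Of these 20, MME, NPR3 and PTGER2 could not be tested with 10 normalized counts asked of every sample, and 17 were tested under all alternatives. GNAS, S1PR3 and LPAR1, not among the 32, passed the threshold in all 15 fits. DESeq2 lost GNA11, ADRBK2, PLA2G4A, PTGER4, SLAIN1, CAMK2N2 and EPHB3. The neighborhood calls numbered 5 with limma and 2 with DESeq2. Genes with few reads, above all EDNRA, EDN1 and EDN2, are limited by depth. The causes of these shifts were not tested.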
